A study of Caenorhabditis elegans with 2 samples.

Results

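The 60 protein-coding genes described here carry names that begin with snr-, lsm-, rsp-, prp-, mog-, uaf-, sfa-, cpsf-, cpf-, pabp- or rnp-, out of 19973 protein-coding genes on the nuclear chromosomes. They were chosen by these prefixes, with earlier results of these data known, and fall into 11 families, from 1 gene (sfa-1, pabp-2) to 13 genes (prp-). Names with these prefixes mostly denote factors that splice pre-mRNA or form its 3' end, although lsm-1 acts in cytoplasmic mRNA decay and rnp-8 in cytoplasmic polyadenylation. The binding data are chromatin immunoprecipitation with sequencing (ChIP-seq) of LIN-13 in whole C. elegans L1 larvae of both sexes. Both replicates came from strain OP49, which carries the unc-119(ed3) mutation and the integrated array wgIs49, holding lin-13 tagged with TY1, EGFP and FLAG together with an unc-119 rescue copy. There is 1 group of 2 biological replicates and no second condition, and the age of the animals is labelled unknown. The animals carry the tagged gene as a transgene, whole larvae mix all tissues, and a tissue in which a peak arose cannot be named. No untagged strain was analysed here.

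Introns are removed by the spliceosome, which is assembled from small nuclear ribonucleoproteins (snRNPs). Sm proteins form a ring around the snRNAs of most of these particles, and Lsm proteins form a related ring on U6. SR proteins bind exons and recruit the snRNPs. Branch point and 3' splice site are recognised by SF1 and U2AF, RNA helicases drive the rearrangements between steps, and cleavage factors with poly(A)-binding proteins finish the 3' end. LIN-13 has many zinc fingers and belongs to the synMuv B proteins, which repress vulval and germline genes in somatic cells together with the retinoblastoma homolog LIN-35. In C. elegans many genes sit in operons, whose single promoter lies before the first gene, and downstream genes are separated by trans-splicing.

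The word peak is used for a gene when a summit of the reproducible set stood within 500 bp of a 5' end of one of its coding transcripts. The reproducible set is the authors' optimal list by irreproducible discovery rate, 2333 peaks in the ce11 build. Signal is the authors' score per call, on a scale not given in the sources used here, and it was ranked only within a list, with rank 1 the strongest. Each replicate list holds 30000 calls, background included, of which 2475 in replicate 1 and 5192 in replicate 2 had a q-value under 0.05. Sequencing depth is unknown. With 2 replicates of 1 group no test between samples exists, so counts and values are given as descriptions.

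Of the 60 genes, 24 had a peak, 40% (95% exact Clopper-Pearson interval 27.6 to 53.5, counting error only), against 8.62% of all protein-coding genes. These 24 genes were served by 23 summits, since snr-3 and rsp-5 share 1. All 23 summits lay upstream of the member, where 92.9% of all genes with a peak also had theirs. All 23 lay between genes, a share that is not given here for the other peaks. Peaks were found in 9 of the 11 families, and none at uaf-1, uaf-2 or sfa-1. The same window held a peak for 80.9% of 47 large ribosomal subunit genes (rpl-), 51.5% of 33 proteasome genes and 35.5% of 31 RNA polymerase II and Mediator genes (rpb-, mdt-). The intervals for the proteasome genes (33.5 to 69.2%) and the last group (19.2 to 54.6%) overlap that of the splicing and processing genes, the ribosomal one (66.7 to 90.9%) does not, and no test between the groups was made.

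**Figure D1:**
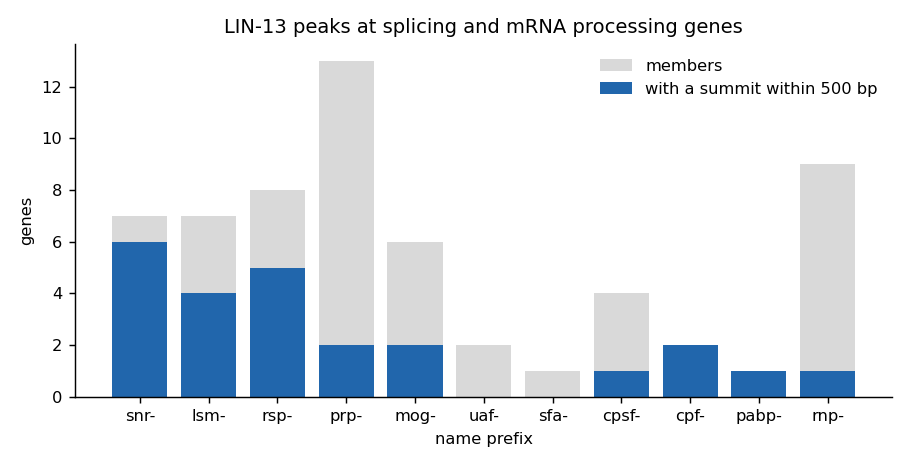
Number of genes per name prefix (grey bars) and number with a reproducible LIN-13 summit within 500 bp of a 5' end (blue bars). The snr- family has a peak at 6 of 7 genes, the prp- family at 2 of 13 and the rnp- family at 1 of 9.

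The summit base of the strongest peak of 6 families and 100 bp on each side of it are shown because these windows were searched for sequence words further on. They were read from the RefSeq copy of WBcel235, the assembly of ce11, 5' to 3' in the direction of the named gene, with the summit at the middle base. Capitals mark the words TTTGAA and TTCGAA on either strand, the forms of the cell cycle genes homology region (CHR) that were searched.
snr-4, chrV:11979956-11980156, minus strand: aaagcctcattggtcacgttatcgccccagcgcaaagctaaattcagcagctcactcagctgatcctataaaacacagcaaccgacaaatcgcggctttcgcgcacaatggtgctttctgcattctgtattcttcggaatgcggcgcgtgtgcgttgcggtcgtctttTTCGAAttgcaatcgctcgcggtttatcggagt
cpsf-1, chrIV:2033107-2033307, minus strand: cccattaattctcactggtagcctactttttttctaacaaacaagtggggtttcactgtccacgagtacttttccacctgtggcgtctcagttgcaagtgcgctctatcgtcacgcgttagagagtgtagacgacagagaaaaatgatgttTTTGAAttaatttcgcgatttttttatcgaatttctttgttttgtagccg
rsp-2, chrII:11453104-11453304, minus strand: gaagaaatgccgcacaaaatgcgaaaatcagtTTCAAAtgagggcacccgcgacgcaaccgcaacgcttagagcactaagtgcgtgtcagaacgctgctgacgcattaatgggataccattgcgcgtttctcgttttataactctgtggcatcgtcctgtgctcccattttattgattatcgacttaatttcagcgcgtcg
prp-40, chrIII:9521818-9522018, plus strand: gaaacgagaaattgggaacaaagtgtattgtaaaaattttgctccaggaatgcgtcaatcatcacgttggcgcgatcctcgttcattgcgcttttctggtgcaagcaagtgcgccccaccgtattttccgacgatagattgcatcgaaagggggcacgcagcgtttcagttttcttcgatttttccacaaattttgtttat
mog-4, chrII:14561709-14561909, minus strand: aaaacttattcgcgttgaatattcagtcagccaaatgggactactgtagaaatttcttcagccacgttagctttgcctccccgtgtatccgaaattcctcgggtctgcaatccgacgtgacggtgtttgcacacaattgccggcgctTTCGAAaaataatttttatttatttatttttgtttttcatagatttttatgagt
lsm-7, chrIV:10933170-10933370, plus strand: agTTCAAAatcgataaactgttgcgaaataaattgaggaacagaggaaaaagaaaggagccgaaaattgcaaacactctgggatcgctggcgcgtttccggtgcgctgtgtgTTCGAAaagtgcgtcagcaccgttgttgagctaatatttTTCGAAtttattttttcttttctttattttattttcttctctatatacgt

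Sm protein genes had the highest count among the families with more than 2 genes, 6 of 7. This lead was not kept under other settings. With 250 bp, 1 of 7 snr- and 3 of 8 rsp- genes had a peak (5.65% of all genes). With the nearest gene only the counts were 2 and 4 (6.59%), and with 1000 bp they were 6 and 7 (10.9%). The strongest Sm gene peak was at snr-4, which encodes SmD2 (V, peak 11979894 to 11980217). Its signal was 239.5 in the reproducible list (rank 149), 118.3 in replicate 1 and 109.9 in replicate 2. The summit lay 333 bp upstream, and no other gene had a 5' end within 500 bp of it.

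At snr-6, which encodes SmE (III, 12429773 to 12430096), the signal was 107.9, with 61.8 in replicate 1 and 38.8 in replicate 2. The snr-1 gene, encoding SmD3, had a signal of 84.9 (IV, 17087482 to 17087805), with 38.1 and 49.5 in replicates 1 and 2. For snr-2, the SmB gene (I, 13338857 to 13339180), the values were 78.2, 44.8 and 39.1. The snr-1 summit is shared with snx-13, 206 bp upstream of it, and the snr-2 summit with W08E3.4. The snr-7 peak, at the SmG gene (I, 2726586 to 2726909), was the weakest of all member peaks, with 50.6 in the reproducible list at rank 2187. The lowest signal of that list is 48.2. Replicates 1 and 2 gave 25.1 and 22.3 there, and the divergent gene Y71F9B.6 lies closer to the summit than snr-7 does.

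The exception was snr-5, which encodes SmF. Its nearest reproducible summit lay 7382 bp upstream. A call 230 bp upstream of snr-5 reached a signal of 34.7 in the pooled list, which keeps background, at rank 3765 of 30000.

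The shared summit of snr-3 and rsp-5 joins an Sm gene (SmD1) and an SR protein gene in 1 divergent promoter (II, 6489817 to 6490140). It lay 218 bp upstream of snr-3 and 186 bp upstream of rsp-5, with a signal of 104.7 (rank 769). Replicate 1 gave 28.1 (rank 1833) and replicate 2 gave 73.4 (rank 504), so the replicates differ in how strong this site appears.

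SR protein genes had peaks at 5 of 8. At rsp-2 (II, 11453042 to 11453365) the signal was 188.7, with 98.0 in replicate 1 and 91.0 in replicate 2. On the other side of this summit lies rsp-1, on the opposite strand. By coding 5' ends it is too far from rsp-2 to count as a divergent neighbour within 1000 bp. The coding transcripts of rsp-1 start 770 bp from the summit, so rsp-1 was not counted. With the 5' ends of all annotated transcripts rsp-1 has a peak and the total is 25 of 60, against 8.63% of all genes. At rsp-6, the SRp20 homolog (IV, 7791230 to 7791553), the signal was 151.9, with 78.7 and 70.9 in replicates 1 and 2. The rsp-3 gene, the homolog of SF2/ASF (III, 12688022 to 12688345), had 135.4, with 53.7 and 78.0, and shares its summit with spin-4.

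The weakest of the 5 was rsp-7 (II, 10658770 to 10659093), with a signal of 74.3. Replicate 1 gave 21.5 (rank 2993) and replicate 2 gave 60.8 (rank 716), the largest ratio between replicates among the member peaks, 2.83. This summit is also 306 bp upstream of snu-13, a component of the U4/U6 snRNP, so a second promoter pairs an SR gene with a snRNP gene. Peaks lay outside the window at rsp-8, the Tra2 homolog (570 bp upstream, signal 69.7), and at rsp-4, the SC35 homolog (1295 bp upstream, signal 127.6).

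In the Lsm family, peaks were found at lsm-1, lsm-5, lsm-6 and lsm-7. The strongest was at lsm-7 (IV, 10933108 to 10933431), with a signal of 105.1, and 44.8 and 58.9 in replicates 1 and 2. It is nearer to dnc-1, a dynactin gene, whose 5' end is 67 bp from the summit. The lsm-1 peak (II, 11126435 to 11126758; 88.2, 32.1 and 52.9) is shared with the ribosomal protein gene rps-9. Signals at lsm-5 (V, 15569781 to 15570104) were 70.7 in the reproducible list and 38.9 in replicate 1, and in replicate 2 the call had rank 2339. At lsm-6 (I, 1700999 to 1701322) the 3 signals were 67.9, 38.96 and 36.6. The best rank in the family was 763, at lsm-7, and all 7 lsm- genes had some call of the pooled list within 500 bp, against 39.2% of all genes.

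Of 13 prp- genes 2 had a peak, 15.4% (exact interval 1.92 to 45.4), against 8.62% of all genes. Both peaks were strong and alike in the replicates. At prp-40, whose yeast homolog belongs to the U1 snRNP (III, 9521756 to 9522079), the signal was 187.2, with ranks of 234 in replicate 1 and 297 in replicate 2. The gene clu-1 has a 5' end 458 bp from this summit. At prp-8, the core protein of the U5 snRNP, a narrow peak of 83 bp (III, 8164029 to 8164111) had a signal of 184.4, with 93.3 and 92.9. A stronger peak, with a signal of 264.7 (rank 114; replicates 131.0 and 130.7), lay 645 bp upstream of prp-19, a ubiquitin ligase of the spliceosome, and was not counted. Among the remaining prp- genes the strongest pooled call within 500 bp was at prp-31, a gene of the tri-snRNP, with a signal of 44.2 at rank 2620, 129 bp upstream.

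The mog- genes, named for a masculinized germ line, include DEAH-box helicases of the spliceosome. Peaks were found at mog-4, the Prp2 homolog, and mog-3, the CWC25 homolog, 2 of 6 (33.3%, against 8.62% of all genes). The mog-4 peak (II, 14561764 to 14561917) had a signal of 110.7, with 39.03 in replicate 1 and 71.6 in replicate 2. At mog-3 (III, 5308301 to 5308624) the values were 62.7, 32.6 and 30.4. The helicase genes mog-1 and mog-5 had no reproducible summit within 2000 bp.

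Among 3' end factors, cpsf-1, which encodes the largest subunit of the cleavage and polyadenylation specificity factor (IV, 2033045 to 2033368), had a signal of 191.5, with 80.6 and 111.1 in the replicates. The other 3 cpsf- genes had no peak, including cpsf-3, the gene of the endonuclease. Of the cleavage stimulation factor, both cpf- genes had one, while suf-1, the gene of a further subunit, had none within 500 bp. The signal was 102.5 at cpf-2 (III, 13268846 to 13269169; 51.2 and 54.2 in the replicates) and 53.4 at cpf-1 (II, 8602375 to 8602698; 29.3 and 22.6), the latter shared with the ribosomal protein gene rpl-26. At pabp-2, the nuclear poly(A)-binding protein gene (I, 9422224 to 9422547), the signal was 190.3, with 75.8 and 113.2, at a summit 394 bp upstream of pabp-2 and 170 bp upstream of C17E4.6.

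The rnp- prefix is given to a mixed set of RNA recognition motif proteins. Of 9 such genes 1 had a peak (11.1%, against 8.62% of all genes), rnp-6, the PUF60 homolog (I, 3546868 to 3547191). The signal at rnp-6 was 102.2, with 52.8 in replicate 1 and 48.3 in replicate 2. The RNA interference gene rde-10 lies 41 bp from that summit, closer than rnp-6 at 120 bp. The genes of the 3' splice site factors, uaf-1 (large subunit of U2AF), uaf-2 (small subunit) and sfa-1 (SF1), had no peak. A pooled call 26 bp upstream of uaf-2 had a signal of 42.5 at rank 2763, below the reproducible set, with 15.4 in replicate 1 and 23.3 in replicate 2.

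**Figure D2:**
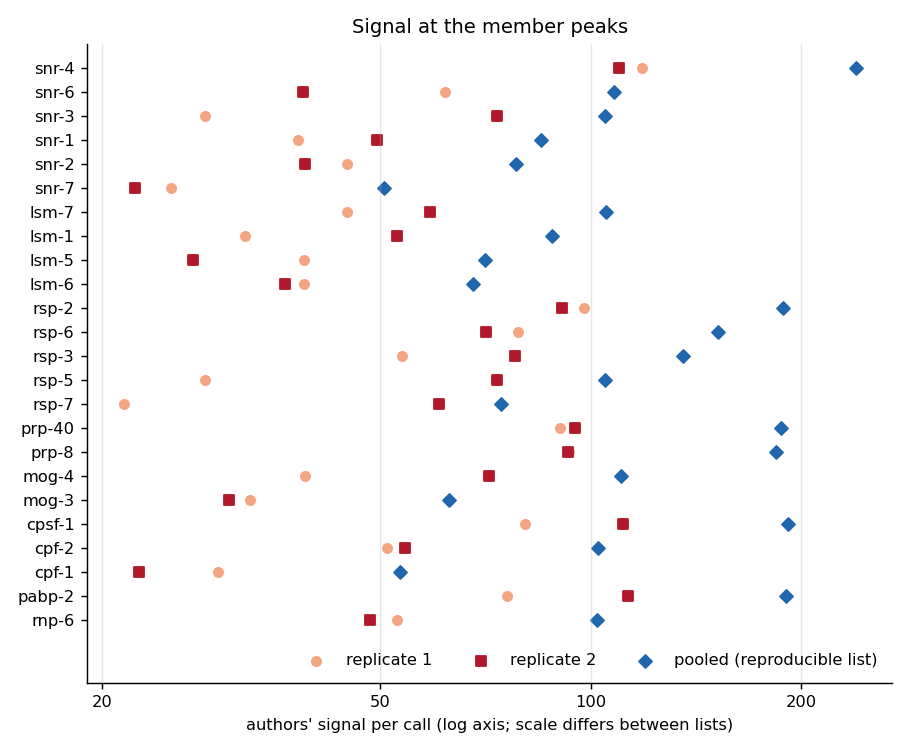
Authors' signal per call (log axis) at the summit of each of the 24 genes with a peak, in the reproducible list (diamonds), replicate 1 (circles) and replicate 2 (squares). The reproducible signals run from 50.6 at snr-7 to 239.5 at snr-4, and snr-3, rsp-5 and rsp-7 show the widest gap between replicates.

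Every member summit had a call within 100 bp in both replicates. Of the 23 summits, 19 were among the 2333 strongest calls of both lists and 6 among the 500 strongest of both. Signals of the replicates were within 1.5 times of each other at 18 summits, and replicate 1 had the higher signal at 12. The scale of the signal can differ between the lists. By rank within each list, replicate 1 was the stronger at 14 summits. The reproducible set was itself taken from these lists, and the same counts over all reproducible peaks are not given here. These counts therefore do not show whether member peaks are more reproducible than others. Taking the strongest 2333 calls of replicate 1 alone, 24 genes had a peak (8.34% of all genes), with rsp-7 lost and rnp-2 gained. With replicate 2 alone, 21 had one (8.43% of all genes), and cpf-1, lsm-5 and snr-7 were lost. In 20 genes both replicates alone gave a peak.

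In strength the member peaks ran from rank 149 at snr-4 to rank 2187 at snr-7. Their median signal was 104.7 (95% interval of the median 78.2 to 152), beside 85.1 for the 1346 promoter peaks of all genes, and 15 of 23 were above that value. One, at snr-4, was among the strongest 10% of reproducible peaks (rank 233 or better), and cpsf-1, pabp-2 and rsp-2 followed at ranks 243, 248 and 253. With only the stronger part of the reproducible peaks, 17 genes had a peak (4.94% of all genes), and with only the 5'-most end of each gene 24 had one (8.21% of all genes).

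Summit positions were measured from the nearest 5' end. The median position was -240.5 bp (95% interval of the median -309 to -186), against -180 bp for all genes with a peak. Of the 24 genes, 13 had the summit within 250 bp (54.2%), against 65.6% of all genes with a peak, and that window held a peak for 5.65% of all genes. Positions varied between families. Summits of the snr- genes lay 218 to 405 bp upstream (median -319.5) and those of the lsm- genes 200 to 437 bp, while cpf-1, cpf-2 and rnp-6 had them 97 to 125 bp upstream. Among these, another gene was nearer to the summit at snr-1, snr-2, snr-3, snr-7, lsm-1, lsm-7 and rnp-6. The families are small, and no difference between them was tested. The large ribosomal subunit genes had a median of -297 bp and the proteasome genes one of -180 bp. For trans-spliced genes the annotated 5' end can be the splice site instead of the start of transcription, and its part in the distances was not tested.

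**Figure D3:**
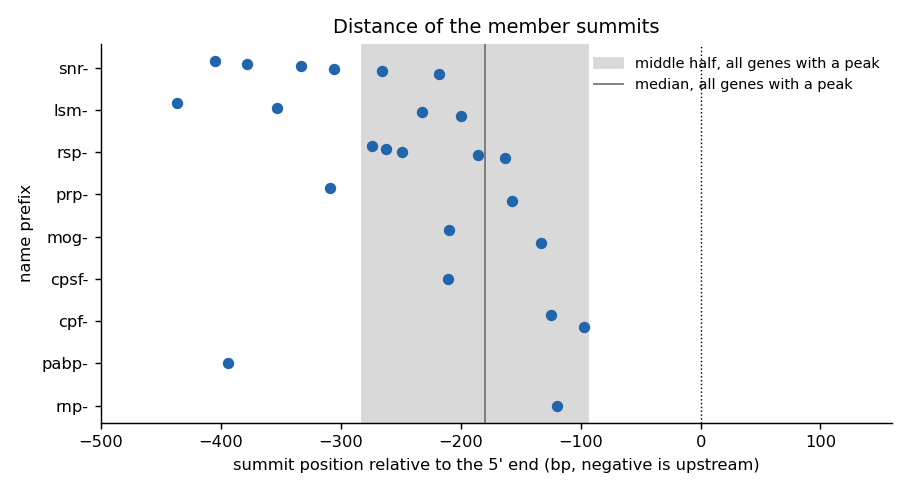
Position of the reproducible summit relative to the nearest 5' end of each of the 24 genes with a peak, by name prefix (points, in bp, negative upstream). The grey band spans the quartiles of all genes with a peak (-282 to -94 bp) and the line their median of -180 bp. The 6 snr- summits lie at -218 bp or farther upstream.

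Members were also counted by the arrangement of their neighbours. A divergent protein-coding 5' end lay within 1000 bp upstream of 28 of the 60 genes (46.7%), against 17.7% of all genes. Among these 28, 15 had a peak (53.6%), against 24.4% of 3531 genes with such a neighbour. In 14 of the 24 genes with a peak (58.3%), the summit was also within 500 bp of another gene, against 47.3% of all genes with a peak, and such a peak cannot be assigned to either gene. When each summit was given only to the gene with the nearest 5' end, 15 of the 60 had a peak (6.59% of all genes), and snr-1, snr-2, snr-3, snr-7, lsm-1, lsm-7, rsp-3, rnp-6 and pabp-2 were lost.

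Another 15 genes (25%, against 18.1% of all genes) followed a same-strand gene that ends within 500 bp upstream, the layout of downstream genes in operons. The files do not mark operons, so runs were defined by this distance alone. Of the 15, 3 had a peak at their own 5' end, lsm-5, lsm-6 and rsp-6 (20%, against 5.73% of all genes in such a position). In 7 others the peak stood at the first gene of the run, 46.7% of the 15, against 17.0% of all genes in such a position.

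These 7 were rnp-7, lsm-8, lsm-3, prp-38, prp-39, prp-3 and cpsf-3. The strongest case is rnp-7, which encodes the U1-70K protein. It follows syf-2, another splicing factor gene, and the peak of signal 545.9 (III, 7162396 to 7162620), the seventh of the whole set, lay 390 bp upstream of syf-2 and 1350 bp upstream of rnp-7. K04G7.1 also has a 5' end within 500 bp of this summit. In the replicates the peak reached 278.1 (rank 6) and 268.2 (rank 12). The gene lsm-8, of the nuclear Lsm ring, follows sqd-1, which had a summit of signal 261.3 at 297 bp upstream. For prp-39 the first gene is hmgs-1, the hydroxymethylglutaryl-CoA synthase gene, with a signal of 222.5 at 158 bp upstream. The run of prp-38 begins with plrg-1, itself a spliceosome gene, with 143.9 at 210 bp upstream. At lsm-3, cpsf-3 and prp-3 the first genes were Y62E10A.23 (137.1), Y67H2A.2 (118.7) and smrd-1 (88.5).

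Counting these, 31 of 60 genes (51.7%) had a peak at their own 5' end or at the first gene of their run, against 11.7% of all genes. The run of uaf-2, cyn-13 and sfa-1, which holds 2 genes of 3' splice site recognition, had a peak neither at these genes nor at its first gene, and rnp-3 follows rnp-2 in another run without one.

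**Figure D4:**
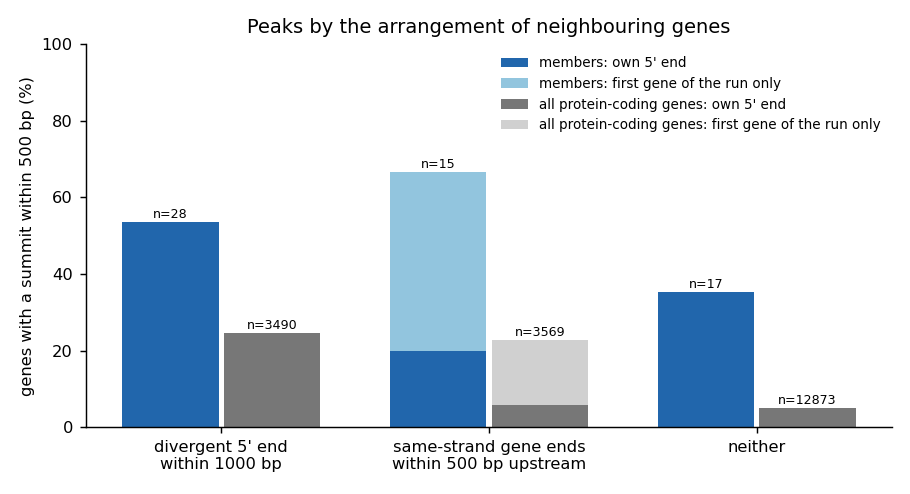
Percentage of genes with a reproducible summit within 500 bp of their own 5' end (dark bars) or, for genes that follow a same-strand gene, only of the first gene of the run (light bars, stacked), for the members (blue) and all protein-coding genes (grey), with the genes that have both neighbours left out. The numbers above the bars are genes in each class, and among the 15 members in a run 20% had their own peak and 46.7% a peak at the first gene only.

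Of the 36 genes without a peak, 24 had some pooled call within 500 bp and 12 had none, so that 48 of 60 genes (80%) had a call, against 39.2% of all genes. Reproducible summits lay within 2000 bp of 6 of them, all upstream, at rsp-8, prp-19, rsp-1, lsm-3, rsp-4 and rnp-7. For the remaining 30 the nearest one was 2088 to 97802 bp away. Just below the reproducible set, 3 genes had a pooled call with a q-value under 0.05, prp-31 (44.2), uaf-2 (42.5) and rnp-2 (37.0), which makes 27 of 60 (11.2% of all genes).

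Sequence around the member summits was set beside that of the 1346 promoter peaks of all genes, which include them. The searched words were E2F-like sites (TTCCCGCC, TTTCCCGC, TTCGCGCC, TTGGCGCC or TTCCCGCG), the CHR (TTTGAA or TTCGAA), a run of T (TTTTTTTT, the T-tract) and CCGCCC (the GC-box), each read in both directions. Some E2F-like words overlap each other, and the median GC content was 40.8% in both sets. A CHR word was in 21 of 23 member windows of the size shown, 91.3% (exact interval 71.96 to 98.9), against 51.7% of the 1346 promoter peaks. The E2F-like words were in 1 window, at rsp-6, 4.35% against 7.73%. The GC-box was in 1, at rnp-6, against 9.66%, and the T-tract in none (upper bound 14.8%), against 16.7%.

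The CHR words were separated after these values had been seen. The form TTCGAA was in 15 of 23 member windows, 65.2%, against 15.3% of the other 1323 promoter peaks, and TTTGAA was in 52.2% against 42.4%. Read toward the gene, TTCGAA lay on the gene side of the summit in 17 of 20 matches, with a median offset of 49 bp from the summit. The other promoter peaks were read toward their nearest gene. There TTCGAA lay on the gene side in 134 of 216 matches (62.0%, against 85% for the members), with a median offset of 29 bp. Member windows were read toward the member even where another gene is nearer. With a gene-side match, a divergent gene was nearer at snr-1, snr-2, snr-7, lsm-7, rsp-3 and rnp-6. Read toward that gene, these matches would lie on the far side. The shares and offsets therefore cannot show a difference in side, and none was tested. In the windows shown, TTCGAA stands on the gene side of the summit at snr-4, mog-4 and lsm-7, while cpsf-1 has TTTGAA there, rsp-2 has a word only on the far side and prp-40 has neither. Within 50 bp of the summit, 43.5% of member windows held a CHR word, against 28.5%.

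The promoters of members without a peak were set beside these, from 250 bases before to 50 after the 5'-most end. TTCGAA was in 16 of 24 promoters of members with a peak (66.7%) and in 13 of 36 without one (36.1%), against 18.2% of all genes and 23.4% of all genes with a peak. With both CHR forms the shares were 91.7%, 80.6%, 68.9% and 69.4%, in the same order. A match describes the letters only, and nothing was measured about a factor bound there.

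**Figure D5:**
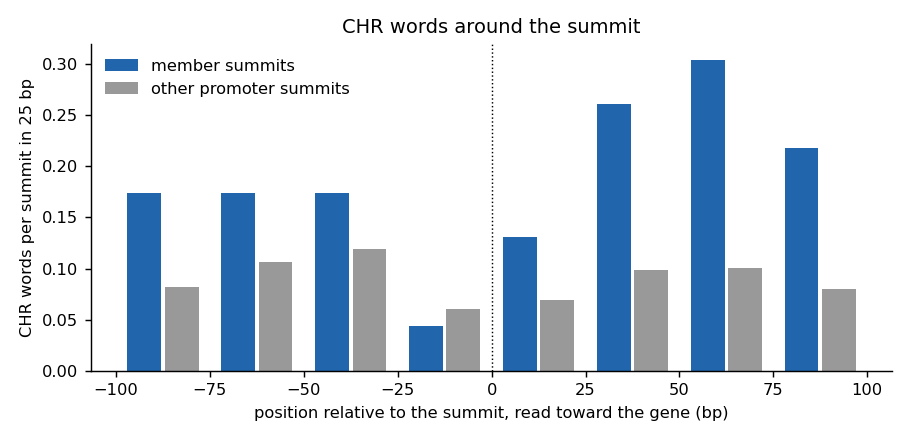
Number of CHR words per summit in bins of 25 bp, read toward the gene (positive is the gene side), for the 23 member summits (blue) and the other 1323 promoter summits (grey). The highest bar of the member summits, 0.304 words per summit, is 50 to 75 bp on the gene side, where the other promoters have 0.101. Member windows were read toward the member even where another gene is nearer, and the other windows toward their nearest gene. The sides are therefore not measured alike in both sets.

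Genes of the same pathway with other names were read from 5 lists, of which 141 genes matched the annotation. In all, 51 had a peak (36.2%, exact interval 28.3 to 44.7), beside the 8.62% of all genes, with a median signal of 81.3 over 51 summits. Among other spliceosome components 16 of 41 had one, led by syf-2 (545.9), smu-1 (180.5) and plrg-1 (143.9). Splicing regulators had 10 of 27, led by rbm-39 (192.4), rsr-1 (182.1) and hrpk-1 (177.5), an hnRNP K homolog. The list of capping, exon junction and export factors had 9 of 19, with the RNA helicase gene hel-1 (186.0) ahead of the capping enzyme gene cel-1 (120.6) and pcaf-1 (111.0). RefSeq names the product of pcaf-1 a histone acetyltransferase and that of inf-1, also in this list with a peak, translation initiation factor 4A, and without both 7 of 17 genes had a peak, and 49 of 139 in all lists (35.3%). Among further 3' end factors 7 of 17 had a peak, with ssup-72, cids-2 and cfim-2 strongest. Their signals ran from 62.0 to 81.3 (ranks 1116 to 1688), below the median of 85.1 for promoter peaks of all genes. In mRNA decay and deadenylation 9 of 37 had one, with ntl-11 (360.7) and ntl-2 (327.2), both of the CCR4-NOT deadenylase, above the exosome gene exos-8 (96.1). Of the genes named from the lists, syf-2, rbm-39, rsr-1 and cel-1 share their summits with K04G7.1, atg-3, sri-5 and npp-14, in that order. The rsr-1 summit, at -495 bp, is near the edge of the window. Peaks of the lists are not all separate from those of the members. The snu-13 summit is that of rsp-7, and the peaks at syf-2 and plrg-1 are those counted for the runs of rnp-7 and prp-38.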

How the data were processed

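The authors' deposited ce11 peak lists were used: 1 list per replicate, 1 list from both replicates pooled and the reproducible set. Per the deposited file descriptions, the replicate and pooled lists were called against a control alignment, not analysed here, and keep background, and the reproducible set was taken from them. The deposited signal is a score per call on an unstated scale, and the deposited −log10 q-value was used only to count calls under 0.05. Neither the aligner, the caller nor the depth is named in the sources used here.

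The Ensembl release 115 annotation of WBcel235 gave 29314 distinct 5' ends of coding transcripts. The nearest summit to each gene's 5' ends was found with Python 3.11.15, numpy 2.4.6 and pandas 2.3.3, and exact intervals with scipy 1.17.1. The search was tested on simulated data. Replicate calls were matched within 100 bp. Members and lists were chosen with earlier results of these data known. Any member could be named, with full values for those with a peak or a summit within 2000 bp. Genes named for a weaker call or for the first gene of a run were added after values were seen. Pathway list genes were the 3 strongest, and sequences the 6 strongest family peaks off chromosome I. Unmatched list names (11) were left out. Alternatives were windows of 250 and 1000 bp, other 5' ends, other peak sets and each replicate alone. The separate CHR words, promoter windows, ends of all transcripts the count of each summit once, the count over runs and the list without inf-1 and pcaf-1 were added after the data were seen.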

Additional observations from a re-analysis of the deposited data

How the results depend on the processing

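The count of 24 genes with a peak was 13 with a window of 250 bp (5.65% of all genes), 15 with the nearest gene only (6.59%) and 48 with all pooled calls (39.2%). It stayed within 1.5 times with 1000 bp (28, against 10.9% of all genes), the stronger part of the peaks (17, 4.94%) and the 5'-most ends (24, 8.21%). The same held for replicate 1 alone (24, 8.34%), replicate 2 alone (21, 8.43%) and 5' ends of all transcripts (25, 8.63%). It also held with each summit counted once (23) and with first genes of runs included (31, 11.7%). Families with a peak numbered 7 to 10 instead of 9. The lead of the snr- family over the rsp- family was lost with 250 bp, 1000 bp and the nearest gene only. The 2 families had equal counts with the stronger part of the peaks (4 each), replicate 2 alone (5 each) and 5' ends of all transcripts (6 each). Within 50 bp of the summit the CHR share was 43.5% instead of 91.3%, and the E2F-like share 0 instead of 4.35%. A smaller window holds fewer words by construction. The medians of signal and distance stayed within their 95% intervals under the settings tried. A gap of 1000 bp put 16 instead of 15 genes after a same-strand gene. No paired analysis was possible because both replicates belong to 1 group. Counts per family are small and the depth is unknown, so a missing peak is not evidence that binding is absent.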

Other observations

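By chromosome, members with a peak numbered 5 of 10 on I, 7 of 14 on II, 6 of 15 on III, 4 of 13 on IV, 2 of 7 on V and 0 of 1 on X, beside shares of all genes with a peak of 12.7, 8.44, 13.7, 8.50, 5.55 and 5.35% in that order.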
